A study of Homo sapiens with 4 samples.

Results

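Stress-induced targets of p53, the 9 genes MDM2, CDKN1A, GDF15, PLK2, SESN1, SESN2, BBC3, BTG2 and FAS, were followed in human embryonic stem cells depleted of UPF1. They were taken by gene symbol, and all 9 had a row among the 15942 genes of the count table and were tested. RNA came from H9, an established human embryonic stem cell line, here cultured on Matrigel with E8 supplement. There were 2 libraries from cells given a control small interfering RNA (siRNA) against luciferase (siLuc) and 2 from cells given an siRNA against UPF1 (siUPF1). The control columns of the count table share 1 name, so they are told apart here as control a (the left one) and control b, while the siUPF1 libraries are replicates 1 and 2. The treatment text, shared by every library, also names an siRNA against UPF3A and an actinomycin D time course, a block of transcription. It ties no time point to a library, so whether transcription was blocked in any of them cannot be told apart from the labels. The study asked how loss of UPF1 changes gene expression in these cells.

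The p53 protein is a transcription factor that is held low by MDM2, the ubiquitin ligase that marks it for degradation. Damage or other stress frees it from MDM2, and it then induces genes that stop the cell cycle, repair DNA, adjust metabolism or trigger cell death. MDM2 is itself a p53 target, which closes a negative feedback loop, and embryonic stem cells are known to die readily when p53 is activated. The helicase UPF1 is central to nonsense-mediated decay (NMD), which degrades transcripts whose translation ends ahead of an exon junction, and which also lowers many ordinary stress transcripts. Some p53 targets, GDF15 and SESN2 among them, are also induced through ATF4, the transcription factor of the integrated stress response.

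The DNA to which p53 binds is a pair of like 10-base motifs, and the reference sequence was searched for this element because the 9 genes share p53 as a regulator. RefSeq start windows (GRCh38.p14, 250 bases before and 50 after each annotated start) covered all 9 genes with 16 windows. A match was 20 bases, 2 such motifs with no spacer, with at most 3 mismatches to the p53 consensus, which reads alike on both strands. The limit was set with the known elements of several of these genes in mind. Such letters were found near at least 1 start of 4 of the 9 genes, and in 5.2% of all 35116 windows (6.39% of 27305 genes). At most 2 mismatches were met by 2 of the 9 genes, against 0.82% of all genes (0.649% of windows). These shares are a description, because the 9 genes were picked as p53 targets. A gene with more windows also has more places for a match, and MDM2 has 4, FAS 3 and SESN1 3. The 5 matches, the sequence data that bear on p53 binding near these genes, are printed with their flanks and with the 20 matched bases in capitals.
MDM2, first match, chr12:68808903-68808962, plus strand: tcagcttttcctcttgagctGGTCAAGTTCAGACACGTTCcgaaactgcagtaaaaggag
MDM2, second match, chr12:68808941-68809000, plus strand: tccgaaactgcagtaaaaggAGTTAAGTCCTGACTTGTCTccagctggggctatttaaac
FAS, chr10:88991289-88991348, plus strand: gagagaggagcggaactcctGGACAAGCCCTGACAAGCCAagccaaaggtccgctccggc
SESN1, chr6:109008998-109009057, minus strand: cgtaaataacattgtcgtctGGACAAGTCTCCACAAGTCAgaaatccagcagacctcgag
GDF15, chr19:18386181-18386207, plus strand: tgcacAGCCATGCCCGGGCAAGAACtc

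The first MDM2 match and the FAS match had 2 mismatches each, and the other 3 matches had 3. In GENCODE release 29 both MDM2 matches lay in intron 1 of 4 of the 15 basic coding transcripts and outside the other 11. The FAS match lay in intron 1 of all 4 such transcripts, and the SESN1 match in intron 1 of 2 of 3. The GDF15 match lay inside an exon and reached into the coding sequence of its 1 transcript. Windows of CDKN1A, PLK2, SESN2, BBC3 and BTG2 held no match of this form, which says only that these letters are not in these windows. The same limit holds for the other elements below, and absence from 16 windows is common for elements that few windows hold. The element TGATGNAAN, bound by ATF4 with a C/EBP partner and sought on both strands, was in none of the 16 windows, against 3.61% of all windows. The cyclic AMP element TGACGTCA was also in none (1.85% of all windows), and its core TGACG, contained in the full element, was found for PLK2, BTG2 and SESN1 (28.4% of all genes, 24.6% of windows). TATAAA was found for GDF15 alone of the 9, and for 14% of all genes (11.5% of windows).

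**Figure D1:**
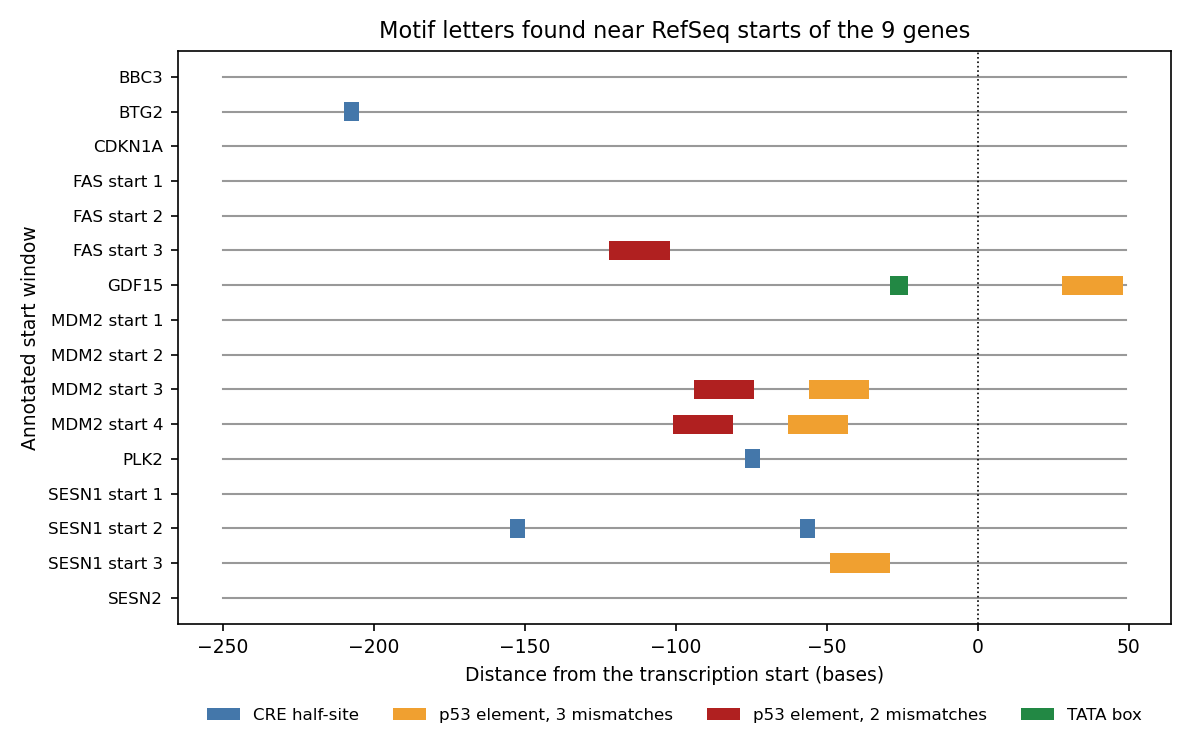
Motif letters near the annotated starts. Each line is 1 RefSeq start window of a gene, the x axis is the distance from the transcription start in bases, and bars mark matches to the p53 element, the cyclic AMP element's core and the TATA box. The p53 letters lie at MDM2 starts 3 and 4, FAS start 3, SESN1 start 3 and GDF15.

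Depth ranged from 8887239 to 11200973 counts per library, and values are TMM-scaled CPM (a gene's count relative to the scaled library total) unless stated. The siRNA target was low as labelled, with UPF1 at 219 and 205 CPM in the controls and at 60.8 and 78.2 CPM in siUPF1 replicates 1 and 2. Among 15557 genes tested, 16.8% were called up and 9.14% down with 0.05 as the limit on p, Benjamini-Hochberg adjusted over all genes, in edgeR's quasi-likelihood test. Of these calls 64.8% were up, against 53.3% once a trend on reads per transcript base was taken out, 73.3% in DESeq2 and 60.0% to 72.3% without single libraries. All 10 stem cell markers checked were expressed, with a summed level of 2361 to 2532 CPM in the controls and 2060 to 2236 CPM after siUPF1, and 6 of the 10 fell. Genes listed as fibroblast markers (6 of 10 tested, led by THY1, COL1A2 and COL1A1) summed to 564 to 579 CPM in the controls and 567 to 590 CPM after siUPF1. COL3A1, DCN, LUM and FAP of this list were not in the table, and whether the reads come from fibroblasts was not tested. Of the 6 tested, PDGFRB rose by 0.40 and PDGFRA fell by 0.61 on the log2 scale. Markers of differentiated lineages (7 of 12 tested) summed to 34.4 to 35.2 CPM and to 33.0 to 33.4 CPM, where 2 rose and 2 fell. The near-equal sums hide opposite changes at low levels. FOXA2 went from 4.98 and 4.09 CPM to 0.600 and 0.535 CPM, a log2 fold change of -2.97, the lowest of all genes tested. The log2 fold change was -0.82 for MIXL1, 1.19 for GATA3 and 1.39 for CGA. The part of these marker changes in the results on the 9 genes was not tested. The labels do not tell whether libraries of 1 group were separate cultures, so the p-values rest on a spread that may be technical.

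Of the 9 genes, 8 rose after UPF1 siRNA and MDM2 did not pass the test. The rises ran from 1.19-fold for SESN1 to 3.63-fold for GDF15. The 8 risers, 88.9% of the genes, stand beside 16.8% called up among all genes tested and 25.9% called in either direction. The 9 genes were chosen with earlier results of these data known, so these shares are a description. The median log2 fold change was 0.48, against -0.01 over all genes. None of the 9 fell, by edgeR, DESeq2 or limma-voom, and the same held at an unadjusted p under 0.05. All 9 genes, MDM2 included, had each siUPF1 library higher than each control. Of all genes tested 32.3% did so, 31.1% had the reverse order and 63.4% had groups without overlap in 1 order or the other. The count of risers was 5 without control b, where SESN1, BBC3 and BTG2 lost their calls, and 6 with DESeq2 or without control a, where SESN1 and BTG2 lost theirs.

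**Figure D2:**
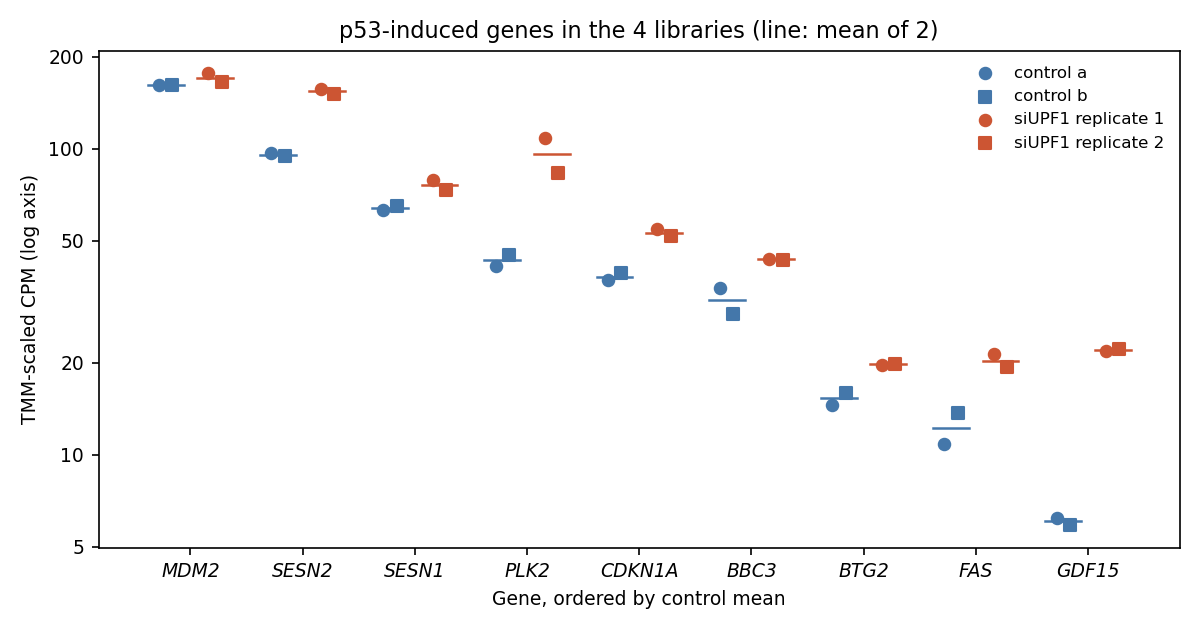
Level of each gene in each library. The y axis is TMM-scaled CPM on a log axis, genes are ordered by control mean, circles and squares are single libraries, and short lines are means of 2. GDF15 is the lowest gene in the controls, at 5.89 and 6.22 CPM, and is at 21.8 and 22.1 CPM in the siUPF1 libraries, while the MDM2 points almost touch.

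MDM2, the feedback ligase, was the most abundant of the 9 by CPM and the least changed. It stood at 162 and 161 CPM in controls a and b, and at 176 and 165 CPM in siUPF1 replicates 1 and 2. The groups do not overlap, but the gap between control a and siUPF1 replicate 2 is smaller than the gap between the siUPF1 replicates. The log2 fold change was 0.08 (SE 0.07, 95% interval -0.06 to 0.21, adjusted p = 0.455), so that a rise of 0.21 or a fall of 0.06 on the log2 scale is within the interval. It stayed between 0.03 and 0.13 over 11 alternative analyses and passed in none of them, with adjusted p from 0.237 to 0.820. The 2 matches printed above lie before its inner starts. The table sums 5 RefSeq transcripts into 1 MDM2 count, so transcripts from the inner and outer starts cannot be told apart.

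CDKN1A encodes p21, the cyclin-dependent kinase inhibitor through which p53 halts the cell cycle. Its level was 37.2 and 39.2 CPM in the controls and 54.6 and 51.8 CPM after siUPF1. Both siUPF1 libraries were above both controls by far more than either pair differed. The log2 fold change was 0.48 (SE 0.09, adjusted p = 2.65e-06), a 1.39-fold rise, and it passed in all 11 alternatives.

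BTG2, an antiproliferative gene whose protein binds the CCR4-NOT deadenylase, had raw counts of 129 and 160 in the controls and 197 and 222 after siUPF1, or 15.3 ± 0.967 against 19.7 ± 0.0480 CPM (SD, n = 2 per group). In CPM the siUPF1 libraries were nearly identical and the controls were both lower. Its log2 fold change of 0.37 (SE 0.14) had an adjusted p of 0.0419, the weakest call among the 8. It passed in 4 of 11 alternatives, and its adjusted p ran from 0.0424 to 0.345, highest without control a.

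PLK2 is a polo-like kinase of the stress-induced branch of its family. It stood at 41.3 and 45.1 CPM in the controls and at 109 and 83.3 CPM in siUPF1 replicates 1 and 2. Replicate 1 was clearly higher than replicate 2, by 0.38 on the log2 scale, yet both were far above the controls. The log2 fold change was 1.15 (SE 0.08, adjusted p = 1.37e-41), the second largest of the 9, and it was 1.33 without replicate 2 and 0.94 without replicate 1.

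BBC3 encodes PUMA, a BH3-only protein that frees the effectors of mitochondrial cell death. It measured 35.2 and 28.8 CPM in controls a and b, and 43.7 and 43.4 CPM in siUPF1 replicates 1 and 2. Here the controls were the pair that differed, control a lying closer to the siUPF1 level. The log2 fold change was 0.45 (SE 0.10, adjusted p = 7.33e-05). It was 0.59 without control a, and 0.30 without control b, where the adjusted p was 0.128.

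FAS, the death receptor that starts apoptosis from the cell surface, was the second lowest gene by CPM in the controls, at 10.9 and 13.7. It reached 21.3 and 19.3 CPM after siUPF1. Both controls were well below both siUPF1 libraries although they differed by 0.33 on the log2 scale. The log2 fold change of 0.72 (SE 0.15, adjusted p = 2.05e-05) corresponded to a 1.65-fold rise and passed in all 11 alternatives, within 0.57 to 0.89.

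GDF15, a secreted stress hormone of the TGF-beta family, had the largest change. Its raw counts were 55 and 59 in the controls and 218 and 248 after siUPF1. In CPM these were 6.22 and 5.89 against 21.8 and 22.1, so that the libraries of each group nearly coincided. The log2 fold change was 1.86 (SE 0.17, adjusted p = 1.37e-25), larger than in 99.5% of tested genes, and ranged from 1.78 to 1.90 over the alternatives. By per-library log2 CPM relative to the control mean, the genes nearest to it over the 4 libraries were GADD45B, PAPPA2 and VLDLR-AS1, at distances of 0.155, 0.173 and 0.226 log2 units. These are distances over 4 libraries among 13633 genes of at least 5 CPM and say nothing beyond likeness. For CDKN1A the nearest were RWDD2B, PRKAB2 and SNX24, with distances of 0.00581, 0.0137 and 0.0309.

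SESN1 and SESN2 encode sestrins, which restrain the growth kinase mTORC1 through the GATOR complexes. SESN2 rose from 96.5 and 94.9 CPM to 157 and 151 CPM, with little spread inside each group. Its log2 fold change was 0.69 (SE 0.07, adjusted p = 7.22e-20) and moved only between 0.66 and 0.71 over the alternatives. SESN1 went from 62.9 and 64.8 CPM to 79.2 and 73.1 CPM, a smaller separation relative to the spread of the siUPF1 pair. Its log2 fold change was 0.25 (SE 0.08, adjusted p = 0.00864). The SESN1 call was lost in 4 of 11 alternatives, with adjusted p of 0.145 in DESeq2, 0.187 without control a, 0.104 without control b and 0.0612 without siUPF1 replicate 1. The 95% intervals of the 2 fold changes, 0.55 to 0.83 for SESN2 and 0.10 to 0.41 for SESN1, did not overlap, and the difference between the genes was not tested. The paralog SESN3, better known as a FOXO target, also changed, by a log2 value of -0.19 (SE 0.07, adjusted p = 0.0280), a call lost in DESeq2 and without control a, control b or siUPF1 replicate 2.

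**Figure D3:**
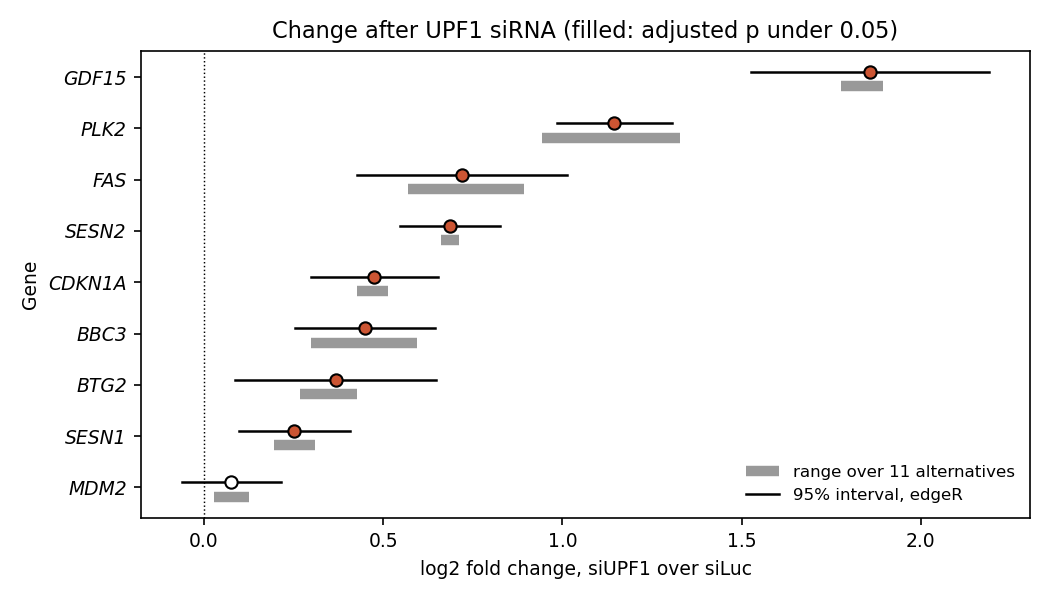
Change of the 9 genes. The x axis is the log2 fold change of siUPF1 over siLuc, points are edgeR estimates with 95% intervals, filled where the adjusted p is under 0.05, and grey bars give the range over 11 alternative analyses. GDF15 and PLK2 stand at 1.86 and 1.15, and MDM2 is the gene whose interval crosses 0.

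Per length of transcript the order of levels changed with UPF1 siRNA. In the controls, in CPM per kilobase, SESN2 was highest at 27.2, followed by SESN1 at 23.2, MDM2 at 21.9, BBC3 at 21.3, CDKN1A at 17.7 and PLK2 at 15.3. BTG2 at 5.65, GDF15 at 5.06 and FAS at 4.55 formed a low group. The BBC3 controls, at 19.2 and 23.4, spanned the MDM2 values and reached those of SESN1, and the FAS and GDF15 controls overlapped each other, so these neighbours do not differ beyond their spread. After siUPF1 the mean level was 43.8 for SESN2, 34.0 for PLK2, 28.9 for BBC3, 27.6 for SESN1, 24.7 for CDKN1A, 23.1 for MDM2 and 18.4 for GDF15. FAS at 7.54 and BTG2 at 7.31 were then lowest, and their libraries overlapped. BBC3 overlapped PLK2 in neither library, at 28.8 and 29.1 against 29.5 and 38.5. Read density of the 9 genes lay between 0.0615 (FAS) and 0.360 (SESN2) reads per transcript base, around the median of 0.172 over all genes.

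Annotated features that NMD is known to read were uneven among the 9. In the longest coding transcript of GENCODE release 29, 6 of the 9 had an AUG upstream of the main start codon, against 50.9% of 13475 coding genes tested. SESN1 had 5, BBC3 had 4, MDM2 had 2, and CDKN1A, PLK2 and SESN2 had 1 each. GDF15, FAS and BTG2 had none. Whether upstream AUGs bear on the size of the rises was not tested. An exon junction more than 50 bases past the stop codon was annotated in 0 of the 9 (0.349% of all), in that same transcript. It was picked among transcripts of the protein-coding type, which leaves out those of the type nonsense-mediated decay. The count therefore does not tell whether other transcripts of the 9 genes have such a junction. A transcript of the type nonsense-mediated decay was annotated for 3 of the 9 (41% of all), for 9 of 34 MDM2 transcripts, 6 of 20 FAS transcripts and 1 of 2 BTG2 transcripts. MDM2 alone of the 9 had a 3′ UTR of at least 2252 bases, as 25% of all genes had. The counts sum all transcripts of a gene, so which transcripts changed was not tested.

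Beyond the 9 genes, 39 other p53 targets on 3 lists were tested. Of these 17 rose (43.6%), 2 fell (5.13%) and 20 did not pass, and their median log2 fold change was 0.13. By DESeq2, 10 rose and 0 fell (15 and 2 when p was not adjusted), and without control a edgeR called 9 up and 0 down (13 and 1 unadjusted). The lists were drawn up with earlier results of these data known, so their counts are a description. They stand beside 16.8% called up and 9.14% called down among all genes tested, with a median of -0.01. DESeq2 called 1280 of all genes up and 467 down.

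Among targets in cell cycle arrest and DNA repair, 4 of 11 rose and 1 fell besides CDKN1A, BTG2 and PLK2. GADD45A, a growth arrest gene, went from a mean of 26.0 ± 1.56 CPM in the controls to 47.4 ± 5.22 CPM (SD, n = 2 each), which is 0.86 on the log2 scale (SE 0.10). PLK3, a further stress-linked polo-like kinase, rose by 0.66 (SE 0.12) and the lesion-bypass polymerase gene POLH by 0.38 (SE 0.10). The POLH call was lost in DESeq2, without control a and without siUPF1 replicate 2, where it stood at 0.20 with an adjusted p of 0.206. The faller was XPC, a damage sensor of nucleotide excision repair, at -0.18 (SE 0.07, adjusted p = 0.0461), a call kept in 6 of 11 alternatives. CCNG1, a classic p53 target, measured -0.08 (SE 0.07), or 0.01 with the trend removed, and did not pass.

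Among cell death targets, 6 of 16 rose and 0 fell besides BBC3 and FAS, with 0 falling also at an unadjusted p under 0.05 and in DESeq2. TNFRSF10A, a receptor for the death ligand TRAIL, rose from a mean of 16.9 ± 1.35 CPM to 26.2 ± 0.684 CPM (SD, n = 2 each), or by 0.63 on the log2 scale (SE 0.13). The decoy receptor gene TNFRSF10C rose by 0.60 (SE 0.16), and ZMAT3, which encodes an RNA-binding protein, by 0.30 (SE 0.08). Both of these calls were lost in DESeq2, with adjusted p of 0.0756 for TNFRSF10C and 0.0883 for ZMAT3, and without control a. ZMAT3 then stood at 0.19, and its call was lost with the trend removed too. The mitochondrial death genes BAX (-0.02, SE 0.08) and PMAIP1 (0.03, SE 0.07), 2 further textbook targets, did not pass, and each changed sign in at least 1 alternative. BAK1, a mitochondrial death gene that is not on this list, rose by 0.28 (SE 0.07, adjusted p = 0.00114). It was not followed over the alternatives. With BBC3 and FAS, 8 of 18 rose, but 3 of 18 in DESeq2 and 3 of 18 without control a.

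Among metabolic and secreted targets, 7 of 12 rose and 1 fell besides GDF15, SESN1 and SESN2. The matrix protein gene THBS1, known also as a TGF-beta target, rose from a mean of 86.8 ± 7.13 CPM to 213 ± 13.5 CPM (SD, n = 2 each), or by 1.29 on the log2 scale (SE 0.07), next to 1.86 for GDF15. SPATA18, a gene of mitochondrial quality control, rose by 1.16 (SE 0.15). The faller was CPT1C, a carnitine palmitoyltransferase, at -0.29 (SE 0.08, adjusted p = 0.00205), a call lost in DESeq2 and without control a.

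**Figure D4:**
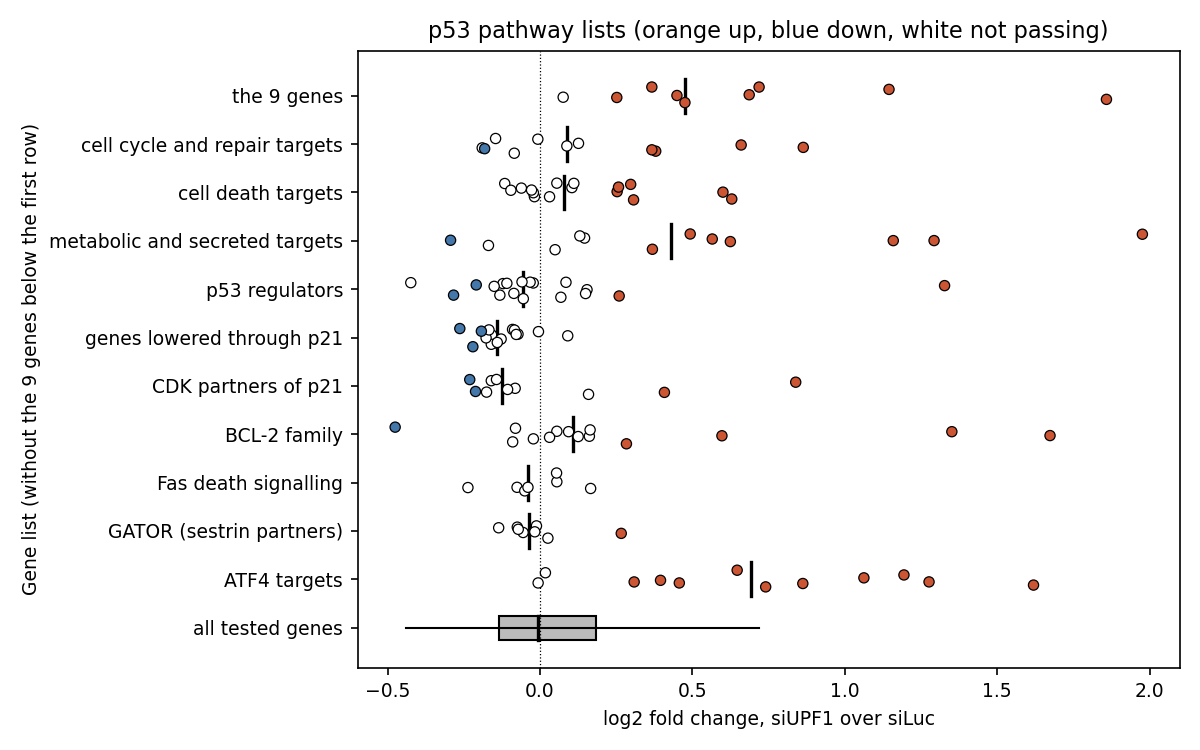
Fold changes by list. The x axis is the log2 fold change of siUPF1 over siLuc, each point is 1 gene, vertical bars are medians, and every list below the top one leaves out the 9 genes. The box of all tested genes spans the quartiles and its line the 5th to 95th percentiles. GDF15 at 1.86 is the farthest point to the right in the top list, and the p21-lowered genes lie mostly left of 0.

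Of 19 tested genes of p53 and its regulators, 2 rose, 2 fell and 15 did not pass, MDM2 among the last, with a median of -0.05. The risers and the fallers were 10.5% each, beside 16.8% up and 9.14% down among all genes tested. ATM, the kinase that signals DNA breaks to p53, rose by 0.26 (SE 0.07), and CHEK2, the checkpoint kinase below it, changed by -0.28 (SE 0.08). CDKN2A, whose locus also encodes the MDM2 inhibitor ARF, rose from a mean of 1.06 ± 0.0560 CPM to 2.64 ± 1.05 CPM (SD, n = 2 each), or by 1.33 on the log2 scale (SE 0.36). The ATM call was lost without control b (adjusted p = 0.262), and the CHEK2 call without either control and in DESeq2, at most 0.0720. The CDKN2A call was lost in DESeq2, without control a and without siUPF1 replicate 2, where its adjusted p was 0.220. MDM4, the partner of MDM2 (-0.03, SE 0.07), and the p53-induced phosphatase gene PPM1D (-0.06, SE 0.08) did not pass, and MDM4 changed sign without control b or siUPF1 replicate 1.

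Downstream of p21, 3 of 16 genes that p53 lowers through it fell, 0 rose and 13 did not pass, with a median of -0.14. Over all genes tested, 9.14% were called down. At an unadjusted p under 0.05, edgeR gave 8 falls and 0 rises among the 16, and 2372 falls among all 15557 genes. With the reads-per-base trend removed, 2 of the 16 fell (4 unadjusted), and 1954 of all genes fell (3123 unadjusted). The spindle checkpoint kinase gene BUB1 changed by -0.26 (SE 0.07), CDK1 by -0.22 (SE 0.07) and the replication licensing gene MCM5 by -0.19 (SE 0.07). The CDK1 and MCM5 calls were each lost in 5 of 11 alternatives. In DESeq2 their adjusted p was 0.146 and 0.148, and once the reads-per-base trend was taken out CDK1 stood at -0.14 and MCM5 at -0.08. The count of falls moved with the libraries left out, with 0 falls without control a (1 unadjusted), 1 without control b, 1 without siUPF1 replicate 2 and 7 without siUPF1 replicate 1. Among 10 cyclins, kinases and RB1 that p21 acts on, 2 rose and 2 fell (20% each), beside 16.8% and 9.14% of all genes. CDK6 rose by 0.84 (SE 0.07) and CCNE2 by 0.41 (SE 0.12), while CCND1 (-0.21, SE 0.07) and CCNE1 (-0.23, SE 0.08) fell. Without control b the 10 held 1 call, that of CDK6, with CCNE2 at an adjusted p of 0.143. Both falls were lost without either control.

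Partners of PUMA, Fas and the sestrins, and paralogs of the 9 genes, were described for the same comparison. Among all genes tested, 16.8% were called up and 9.14% down. The shares were 28.6% and 7.14% for the BCL-2 family, 21.4% and 14.3% for paralogs, and 12.5% and 0% for GATOR genes. Of 14 BCL-2 family genes, 4 rose and 1 fell. The BH3-only genes BIK (1.67, SE 0.31) and HRK (1.35, SE 0.21) rose, from 14 and 12 counts to 42 and 52 for BIK and from 28 and 53 counts to 93 and 140 for HRK, and BMF, another of that kind, changed by -0.47 (SE 0.08). The survival gene BCL2 rose by 0.60 (SE 0.14), or 0.44 without control a, where it did not pass. Of 7 other genes of Fas signalling none passed in edgeR, at an unadjusted p under 0.05 or in DESeq2 and limma-voom, CASP10 standing at 0.17 (SE 0.13). With the trend removed, and without siUPF1 replicate 2, 1 of the 7 fell. Of 8 GATOR genes NPRL3 rose by 0.27 (SE 0.08), a call lost in DESeq2 and without either control or siUPF1 replicate 2. Of 14 paralogs, PLK3, TNFRSF10A and CDKN1C (0.56, SE 0.12) rose and SESN3 and TOB2 (-0.22, SE 0.07) fell, the last 2 losing their calls in DESeq2 and without control a.

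The list of ATF4 targets shares GDF15 and SESN2 with the 9 genes. Besides GDF15 and SESN2, 10 of 12 rose and 0 fell (0 also unadjusted and in DESeq2), with a median of 0.69. The shares over all genes tested were 16.8% up and 9.14% down. ATF3 rose by 1.19 (SE 0.09), TRIB3 by 1.06 (SE 0.08) and PPP1R15A by 0.86 (SE 0.08), while the amino acid synthesis genes ASNS (0.02, SE 0.07) and PSAT1 (-0.01, SE 0.07) did not pass. With the trend on reads per base taken out ASNS passed at 0.15 and PSAT1 stood at 0.12. The part of ATF4 in the rise of the 9 genes was not tested.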

How the data were processed

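Total RNA of 4 H9 libraries was sequenced, and 1 table of the whole series was used. The table holds the authors' raw read counts per gene beside RPKM values that the authors deposited. STAR and DESeq2 with the build hg19 are named, without versions or roles, per the submitters' processing notes. Strand, multimapping and duplicate handling are not given in the sources used here, so overlapping genes and close paralogs are uncertain. The siUPF1 columns were tied to libraries by name, and the control count columns, which share 1 name, to the siLuc group only. The siUPF1 RPKM columns served only to derive transcript length, and 2 control RPKM columns were not used.

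Groups were compared two-sided with glmQLFit and glmQLFTest of edgeR 4.0.16 (R 4.3.3) with TMM, filterByExpr (15557 genes kept, 385 left out) and Benjamini-Hochberg adjustment at 0.05, 2 libraries against 2. The SE is the log2 fold change divided by the square root of F. Library pairs differed beyond sampling noise (chi-square per degree of freedom 1.70 for controls and 2.85 for siUPF1). Checked on simulated data of siUPF1 against control (15557 genes with 200 changed, as many up as down), the test recovered 93% of 2-fold and 74% of 1.41-fold changes with 6 false calls. In the data 25.9% of genes were called, most of them up, so these figures need not hold there. Named genes are UPF1, the 9 genes and the 3 other genes of smallest p in each list. The genes BAX, PMAIP1, CCNG1, MDM4, PPM1D, BCL2, ASNS, PSAT1, XPC, CPT1C, CCNE1, SESN3 and TOB2 were named after their values were seen. So were BAK1 and the single cell type markers. The 9 genes and all lists were chosen with earlier results of these data known. Values of a few rule-named genes are left out of this account and not reported here. Alternatives were RLE, library size alone, DESeq2 1.42.0, limma-voom (limma 3.58.1), no filter, 5 CPM in 2 libraries, a loess fit on reads per base (span 0.3) and leaving out each library. Sequences are from RefSeq (GRCh38.p14) and transcript features from GENCODE release 29; the counts rest on hg19, and no coordinate was converted.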

Additional observations from a re-analysis of the deposited data

How the results depend on the processing

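Of 11 alternatives, DESeq2 and leaving out either control moved the most counts of calls by over 1.5 times. DESeq2 called 1280 genes up and 467 down in place of 2613 and 1422, and 10 further p53 targets up and 0 down (2 down at an unadjusted p under 0.05). The counts by list in this section, unlike that of further p53 targets, include those of the 9 genes that are on the list. By list, DESeq2 called 2 regulators, 4 cell cycle and repair targets, 3 cell death targets and 1 gene lowered through p21. It also called 3 paralogs, 2 CDK partners and 0 GATOR genes (1 unadjusted). With limma-voom 1 further p53 target fell, and after removal of the reads-per-base trend 2 Fas genes were called. Leaving out single libraries gave 1444 to 2764 genes up and 552 to 1522 down, both lowest without control a. It gave 5 to 7 risers among the 9 genes, and 9 to 16 further p53 targets up and 0 to 2 down. Calls in the lists then numbered 1 to 5 regulators, 4 to 7 cell cycle and repair targets, 3 to 8 cell death targets, 0 to 7 genes lowered through p21, 3 to 5 paralogs, 1 to 6 CDK partners, 1 to 2 Fas genes and 0 to 2 GATOR genes. Among genes that did not pass, signs changed without a call. Without single libraries, those log2 fold changes ran from -0.135 to 0.0834 for BAX, -0.0435 to 0.107 for PMAIP1, -0.127 to 0.0527 for MDM4, -0.0461 to 0.0819 for ASNS and -0.0987 to 0.0843 for PSAT1. With the trend removed BAX was 0.0948, CCNG1 0.00810 and PSAT1 0.124. The cause of these shifts was not tested, except that leaving out a library leaves fewer samples, the lone one being assumed to vary like the other group. Of 50 single genes tracked, 65 calls were lost and 2 gained over all alternatives, 12 of the losses among the 9 genes, all in SESN1, BBC3 and BTG2. No paired analysis was possible because the control columns carry no replicate number of their own. Depth limits genes near 1 CPM, such as CDKN2A and BIK.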
